A study of Mus musculus with 18 samples.

Results

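The genes examined here were Retnlb, Ang4, Itln1, Mptx1 and Spink4, 5 of 24047 genes counted by RNA-Seq in mouse colon crypts, which encode secreted antimicrobial and lectin proteins and a secreted protease inhibitor. They were found by symbol, and the set was chosen from the fold changes and levels of these same libraries, so their values are given as a description and carry no p-value. The counts came from intact crypts of C57BL/6 mice, released from the colon with EDTA and retained on a strainer. There were 6 groups of 3 libraries. CONV-WT and CONV-Ern2-/- mice were raised conventionally under specific pathogen-free (SPF) conditions, and GF-WT and GF-Ern2-/- mice were germ free. COLONIZED-WT and COLONIZED-Ern2-/- mice began germ free and spent 14 days with the microbes of a cecal homogenate from WT SPF mice, the donor material for both genotypes. The Ern2-/- genotype was given without a promoter, Cre driver or cell type to which it would be limited. Ages and the relation between mice were not given in the sources used here, so the spread between replicates is that between the libraries of a group.

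Goblet cells of the colon secrete mucins together with smaller proteins that act on microbes in the mucus. RELMβ, encoded by Retnlb, kills Gram-negative bacteria and is known to appear in the colon when microbes or parasites are present. ANG4 is a ribonuclease of the angiogenin family with bactericidal activity, ITLN1 (intelectin) binds sugars that are found on microbes and not on mammalian cells, and MPTX1 is a mucosal pentraxin, a relative of C-reactive protein. SPINK4 is a Kazal-type serine protease inhibitor made by goblet cells. ERN2 (IRE1β) is an endoplasmic reticulum stress sensor of mucosal epithelium that splices Xbp1 mRNA. The comparisons asked how the levels of these genes depend on microbes and on the Ern2 genotype.

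Library totals ran from 5865619 to 23154481 counts, and the 3 lowest ones were in CONV mice. Values below are normalized counts, that is, counts divided by the DESeq2 size factor of the library. Epithelial markers were high in every library (summed normalized counts of 10 genes from 194550 to 632009), whereas the sum of 10 mesenchymal genes did not exceed 407. The 12 immune genes in the table summed to 442 to 4331, with medians of 2665 in CONV-WT and 739 in CONV-Ern2-/-. Among them Kit was the highest in the fit of COLONIZED-WT against GF-WT, with a mean of 2391 against 107 for Ptprc. Ern2 itself was counted in every library, with 1909 to 3100 normalized counts in WT and 386 to 3336 in the libraries labelled Ern2-/-. Of the latter, COLONIZED-Ern2-/- replicate 1 and, in GF mice, replicates 1 and 3 were as high in Ern2 as WT libraries. A gene's total cannot show which exons were read and so does not check the deletion, and genotype names below stand for the labels. Y-linked genes marked all 3 libraries of CONV-Ern2-/-, 1 of CONV-WT and none of GF-WT as male, and 2 in each remaining group, so sex was not balanced between groups. CONV-WT replicate 3 had the lowest level of each of the 5 genes within its group.

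The promoters are shown so that Ang4 and Itln1, which were scarce without microbes, can be set beside Mptx1, which was abundant without them. RefSeq promoter entries on GRCm38.p6, from 250 bases before to 50 bases after the start, matched 3 of the 5 genes, Ang4 (chr14:51773541-51773840, minus strand), Itln1 (chr1:171535245-171535544, minus strand) and Mptx1 (chr1:174330268-174330567, plus strand). Capitals mark matches, on either strand, to any of 9 short motifs. They were TGACGTG for XBP1 and ATF6, CACGTG as the core of many E-boxes, CAGCTG as another E-box, the ATOH1-type E-box CAGATG, TTCNNNGAA for STAT factors, GGGNNTTTC for NF-kB, TTTATG for CDX factors, CAAAGT for HNF4 and GGATGT for SPDEF and other ETS factors.
Ang4: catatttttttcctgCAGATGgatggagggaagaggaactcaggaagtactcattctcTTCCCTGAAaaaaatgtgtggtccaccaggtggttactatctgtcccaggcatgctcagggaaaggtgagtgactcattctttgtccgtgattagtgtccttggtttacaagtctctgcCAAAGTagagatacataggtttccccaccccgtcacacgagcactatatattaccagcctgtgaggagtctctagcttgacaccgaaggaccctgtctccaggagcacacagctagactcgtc
Itln1: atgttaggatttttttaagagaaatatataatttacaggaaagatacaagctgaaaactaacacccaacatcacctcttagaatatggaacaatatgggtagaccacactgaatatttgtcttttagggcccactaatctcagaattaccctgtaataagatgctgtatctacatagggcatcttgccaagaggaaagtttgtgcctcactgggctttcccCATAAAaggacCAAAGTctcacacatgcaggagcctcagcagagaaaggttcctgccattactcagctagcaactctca
Mptx1: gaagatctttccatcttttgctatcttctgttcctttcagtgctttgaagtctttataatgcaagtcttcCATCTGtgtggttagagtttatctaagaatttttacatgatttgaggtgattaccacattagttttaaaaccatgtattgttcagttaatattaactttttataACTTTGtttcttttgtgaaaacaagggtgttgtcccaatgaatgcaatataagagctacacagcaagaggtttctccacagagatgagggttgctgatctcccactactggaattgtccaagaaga
CAAAGT or its complement was found in each of them, beginning at −73 in Ang4, −18 in Itln1 and −76 in Mptx1 relative to the start, and in 14.4% of 32851 promoters of the same length. CAGATG was found in Ang4 (−235) and Mptx1 (−180) and in 17.2% of all promoters. TTCNNNGAA was found in Ang4 (−192; 8.30% of all) and TTTATG in Itln1 (−29; 11.9%). The letters of TGACGTG (2.01% of all promoters) were not in these windows, nor were those of CACGTG (7.15%), CAGCTG (16.3%), GGGNNTTTC (4.36%) or GGATGT (11.1%). No matches overlapped.

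Retnlb (chr16:48816856-48818892, plus strand, GENCODE on GRCm38, protein coding) was scarce without microbes and abundant in WT mice with microbes. In GF mice, replicates 1 to 3 had normalized counts of 172, 329 and 376 with the WT label and 123, 168 and 118 with the Ern2-/- label. In COLONIZED mice the values were 9397, 4448 and 8226 for WT against 484, 75.6 and 456 for Ern2-/-. In CONV mice they reached 34427, 25349 and 7504 for WT against 1021, 1637 and 753 for Ern2-/-. All WT libraries with microbes were therefore above all libraries labelled Ern2-/-, in any state. On the log2 scale Retnlb was higher by 6.25 (SE 0.56) in CONV-WT and by 4.66 (SE 0.31) in COLONIZED-WT than in GF-WT. Within the Ern2-/- label the difference from germ-free mice was 3.06 (SE 0.33) in CONV mice, where the libraries did not overlap, and 1.31 (SE 0.54) in COLONIZED mice, where COLONIZED-Ern2-/- replicate 2 lay below the germ-free libraries. Between genotype labels Retnlb differed by −4.30 (SE 0.54) in CONV mice, a mean of 1137 ± 453 against 22426 ± 13697 (SD, n = 3 each), and by −4.45 (SE 0.78) in COLONIZED mice. In GF mice the difference was −1.10 (SE 0.34), with all 3 GF-Ern2-/- libraries below the lowest GF-WT library by a small margin (168 against 172). In the order of group means, CONV-WT and COLONIZED-WT overlapped, as did COLONIZED-Ern2-/- and GF-WT, and the other neighbours did not.

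Ang4 (chr14:51763878-51773590, minus strand) resembled Retnlb, with a wider spread in several groups. The CONV libraries held 24426, 17347 and 7728 normalized counts for WT and 937, 3824 and 723 for Ern2-/-. Those of COLONIZED mice held 4990, 3222 and 7265 for WT and 249, 208 and 324 for Ern2-/-. Without microbes the counts came to 122, 96.0 and 733 for WT and 80.5, 76.2 and 183 for Ern2-/-. GF-WT replicate 3 and CONV-Ern2-/- replicate 2 stood well above the other libraries of their groups. The difference between CONV-Ern2-/- and CONV-WT was −3.17 (SE 0.66) on the log2 scale, or 9.03-fold, and −4.31 without CONV-Ern2-/- replicate 2. In COLONIZED mice it was −4.31 (SE 0.27), or 19.9-fold, and the groups did not overlap in either state. In GF mice it was −1.48 (SE 0.98) with overlapping groups, and 0.07 without GF-WT replicate 3. Relative to germ-free mice of the same genotype, the log2 difference was 5.69 (SE 0.77) in CONV-WT, 4.03 (SE 1.00) in COLONIZED-WT, 4.00 (SE 0.57) in CONV-Ern2-/- and 1.20 (SE 0.38) in COLONIZED-Ern2-/- mice, with no overlap in any of these 4 comparisons. The CONV-Ern2-/- value was 2.87 without replicate 2 of that group, and the WT values were 7.23 (CONV) and 5.58 (COLONIZED) without GF-WT replicate 3.

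Itln1 (chr1:171518122-171535294, minus strand) was the least abundant of the 5 genes and stood apart from its germ-free level in both WT groups with microbes and in neither Ern2-/- group. CONV-WT libraries had 1629, 807 and 338 normalized counts and COLONIZED-WT libraries 291, 147 and 287, whereas GF-WT libraries had 20.0, 28.7 and 16.7. The Ern2-/- label went with 19.8, 42.2 and 35.9 in CONV, 32.8, 10.8 and 28.1 in COLONIZED and 14.2, 45.1 and 11.5 in GF mice, from raw counts of 11 to 46. The 4 lowest group means, which are the 3 Ern2-/- groups and GF-WT, overlapped with their neighbours, whereas CONV-WT and COLONIZED-WT stood above them and apart from each other. Relative to GF-WT, Itln1 was higher by 5.40 (SE 0.57) in CONV-WT and by 3.48 (SE 0.34) in COLONIZED-WT on the log2 scale. No GF-WT library was male by its Y-linked genes. A fit with sex as a covariate therefore set GF-WT against the other libraries that were not male. It gave 4.70 for CONV-WT, from replicates 2 and 3, and 2.76 for COLONIZED-WT, from replicate 2 alone. Relative to GF-Ern2-/- the values were 0.45 (SE 0.68) in CONV-Ern2-/- and 0.02 (SE 0.68) in COLONIZED-Ern2-/- mice. The genotype difference was −4.85 (SE 0.60), or 28.9-fold, in CONV mice, −3.34 (SE 0.37) in COLONIZED mice and 0.12 (SE 0.64) in GF mice. GF-Ern2-/- replicate 2, the highest germ-free library for Itln1, also held the highest Lyz1 count of all libraries (89.2 normalized counts). Lyz1 is a Paneth cell gene, and whether such cells add to that value was not tested. Without this library the genotype difference in GF mice was −0.77, and the differences from GF-Ern2-/- were 1.30 in CONV-Ern2-/- and 0.91 in COLONIZED-Ern2-/- mice. All CONV-Ern2-/- libraries then lay above the remaining GF-Ern2-/- libraries, whereas the COLONIZED-Ern2-/- libraries still overlapped with them. Without CONV-WT replicate 1, the highest of its group, the CONV genotype difference was −4.17 and the difference of CONV-WT from GF-WT 4.71.

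Mptx1 (chr1:174330518-174332873, plus strand) was abundant already without microbes and followed another course from the other 4 genes. It had 59354, 42908 and 18130 normalized counts in GF-WT and 49582, 31231 and 30095 in GF-Ern2-/-, which overlapped (log2 difference −0.11, SE 0.39). Colonization went with 69940, 91644 and 95012 in WT and 26469, 7760 and 28570 under the Ern2-/- label. Conventional mice had 204798, 186891 and 15422 in WT and 1484, 9347 and 532.5 under the Ern2-/- label. The 3 COLONIZED-WT libraries were thus all above GF-WT, and the COLONIZED-Ern2-/- and CONV-Ern2-/- libraries were all below GF-Ern2-/-. The log2 difference from germ-free mice was 1.10 (SE 0.33) in COLONIZED-WT, −0.82 (SE 0.42) in COLONIZED-Ern2-/- and −3.30 (SE 1.09) in CONV-Ern2-/- mice, a 9.83-fold lower level in the last of these. DESeq2 gave no adjusted p for that last comparison of Mptx1, since its filter on outlying counts left the gene out. In CONV-WT the value was 1.75 (SE 0.79), and 2.29 without replicate 3, whose Mptx1 level was below every GF-WT library. Between genotype labels Mptx1 differed by −5.16 (SE 1.24), or 35.8-fold, in CONV mice and by −2.04 (SE 0.47), or 4.11-fold, in COLONIZED mice, with no overlap in either. Without CONV-Ern2-/- replicate 2, the highest of its group, the CONV genotype difference was −7.06 and the difference from germ-free mice −5.20.

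Spink4 (chr4:40920052-40931395, plus strand) had the smallest differences between genotype labels of the 5 genes in both states with microbes. It had 41276, 47088 and 14748 normalized counts in the CONV-WT libraries, next to 5445, 6701 and 8371 in CONV-Ern2-/-. COLONIZED-WT had 20296, 16059 and 22181 next to 8959, 3103 and 7302 in COLONIZED-Ern2-/-. The germ-free libraries had 3929, 3988 and 1670 (WT) and 3749, 5207 and 2294 (Ern2-/-). WT libraries with microbes were above every other library. Spink4 was higher by 3.42 (SE 0.51) in CONV-WT and by 2.62 (SE 0.28) in COLONIZED-WT than in GF-WT on the log2 scale. Within the Ern2-/- label the log2 difference from germ-free mice was 0.86 (SE 0.33) in CONV mice, with no overlap, and 0.78 (SE 0.40) in COLONIZED mice, with overlap. The genotype difference was −2.33 (SE 0.44), or 5.02-fold, in CONV mice, −1.60 (SE 0.30), or 3.04-fold, in COLONIZED mice and 0.24 (SE 0.39) in GF mice.

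**Figure D1:**
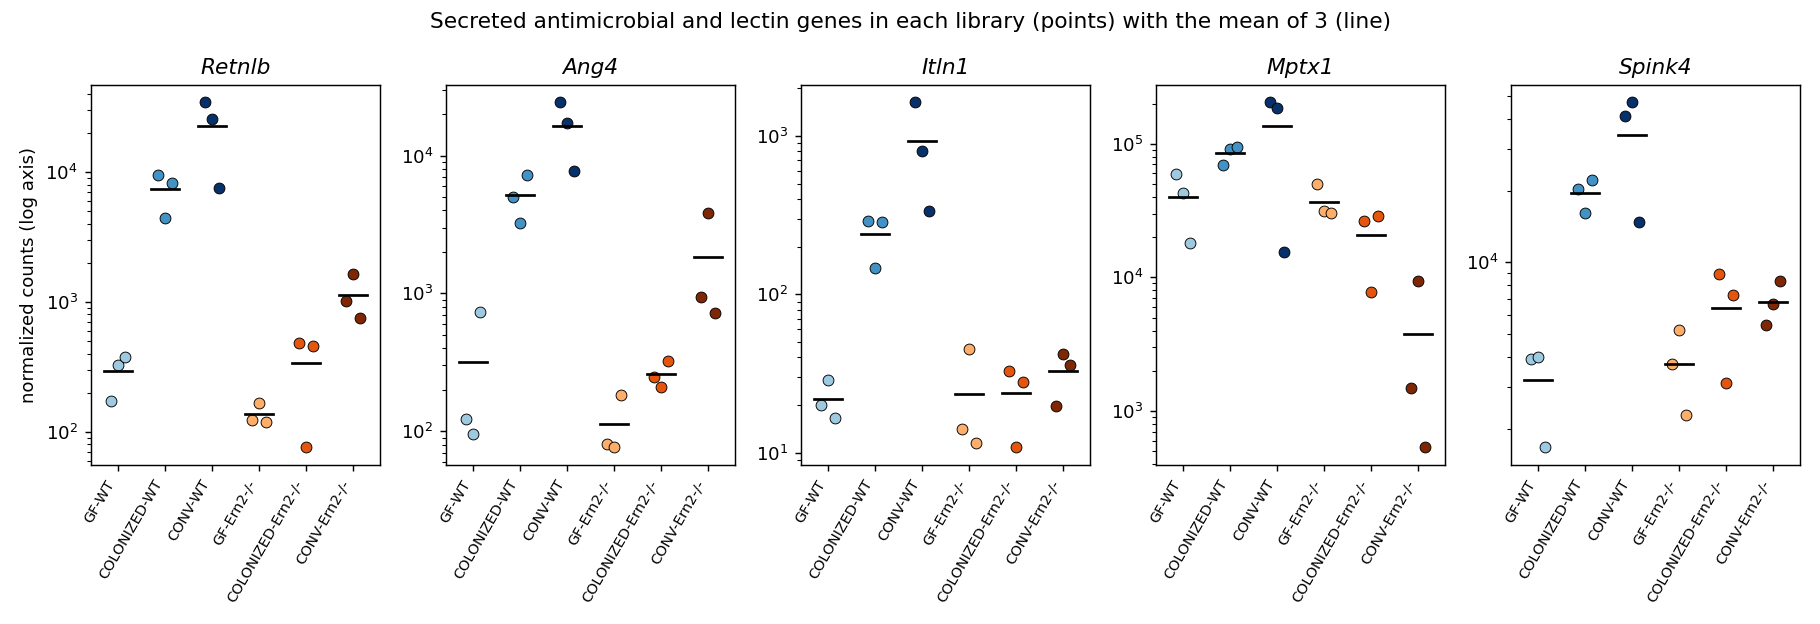
Normalized counts on a log axis for each of the 5 genes, with 1 point for each library, a line for the mean of 3 and groups along the horizontal axis. Retnlb, Ang4, Itln1 and Spink4 are high in COLONIZED-WT and CONV-WT, Itln1 stays between 10.8 and 45.1 in all Ern2-/- libraries, and Mptx1 descends from GF-Ern2-/- to CONV-Ern2-/-.

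To compare levels between genes, normalized counts were divided by transcript length in kilobases. On that scale the mean in CONV-WT was 169842 ± 130853 for Mptx1, 86576 ± 43427 for Spink4, 32222 ± 19680 for Retnlb, 23273 ± 11821 for Ang4 and 810 ± 573 for Itln1 (SD, n = 3). In CONV-Ern2-/- the first 2 genes changed places, with 17227 ± 3698 for Spink4 and 4741 ± 6055 for Mptx1. Ang4 (2578 ± 2443) had a higher mean there than Retnlb (1634 ± 651) through replicate 2 alone (5393 against 2353), and in replicates 1 and 3 Retnlb was the higher (1467 against 1321 and 1082 against 1020). In CONV-WT replicate 3 the order of Mptx1 (19301) and Spink4 (37148) differed from that of the group means, and Ang4 (10900) and Retnlb (10781) were close. Mptx1 took 1.37% and 1.27% of all counts in CONV-WT replicates 1 and 2, and 0.00329% in CONV-Ern2-/- replicate 3, the lowest of the 18 libraries.

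Across comparisons, the count of genes past the study's threshold (DESeq2 adjusted p under 0.01) among the 5 is given beside the share among all genes tested, and nothing is read from it because the 5 genes were selected on these contrasts. Between CONV-Ern2-/- and CONV-WT it was 5 of 5, all lower, where 2.87% of all tested genes were called. The fit with the sex covariate set CONV-Ern2-/- against CONV-WT replicate 1 alone, so its calls are not given. Mptx1 was not called in this comparison without CONV-WT replicate 1, CONV-WT replicate 2 or CONV-Ern2-/- replicate 1, which left 4 of 5. Between COLONIZED-Ern2-/- and COLONIZED-WT it was also 5 of 5, all lower, where 1.20% were called. This count was 3 of 5, without Mptx1 and Spink4, under the sex covariate and when COLONIZED-WT replicate 1, COLONIZED-WT replicate 3 or COLONIZED-Ern2-/- replicate 3 was left out, and 4 of 5, without Mptx1, under the replicate block and when COLONIZED-WT replicate 2 was left out. Between GF-Ern2-/- and GF-WT it was 0 of 5, where 0.0350% were called (Retnlb was called without GF-WT replicate 1). Between CONV-WT and GF-WT it was 4 of 5, without Mptx1 (11.0% of all genes), and between COLONIZED-WT and GF-WT it was 5 of 5 (17.8%). The former was 5 of 5 without CONV-WT replicate 3. The latter was 3 of 5, without Ang4 and Mptx1, when COLONIZED-WT replicate 3 was left out. It was 4 of 5, without Mptx1, under the replicate block and when GF-WT replicate 2 or COLONIZED-WT replicate 1 or 2 was left out. Its calls under the sex covariate are not given, since that fit set COLONIZED-WT replicate 2 alone against GF-WT. Within the Ern2-/- label, Retnlb and Ang4 were called between CONV and GF mice, 2 of the 4 genes with an adjusted p (4.10% of all genes), and none of the 5 between COLONIZED and GF mice (7.65%). In the former, Ang4 was not called without GF-Ern2-/- replicate 1, Spink4 was called without GF-Ern2-/- replicate 2, and Mptx1 was called under the replicate block and without CONV-Ern2-/- replicate 2 or 3. In the latter, Ang4 was called under the replicate block, under the sex covariate and without GF-Ern2-/- replicate 3, and Retnlb without COLONIZED-Ern2-/- replicate 2. The WT and Ern2-/- germ-free groups each serve as controls in more than 1 of these comparisons. For the difference between genotype labels in the response to microbes, Retnlb and Itln1 were called for CONV against GF (0.177%) and Itln1 for COLONIZED against GF (0.0280%). Leaving out 1 library at a time kept the CONV call of Itln1 in 12 of 12 fits, that of Retnlb in 4 and the COLONIZED call of Itln1 in 3. Under the replicate block Retnlb, Itln1, Mptx1 and Spink4 were called for CONV, and Ang4 alone for COLONIZED against GF.

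The quasi-likelihood test of edgeR was more sparing on the same counts. Between CONV-Ern2-/- and CONV-WT it called 0 of 12128 genes, with 1865 at an unadjusted p under 0.05, and none of the 5. In COLONIZED mice it called 1 of 12722 genes, which was Ang4. Between COLONIZED-WT and GF-WT it called 630 of 12761 genes, Retnlb, Itln1 and Spink4 among them. Between CONV-WT and GF-WT it called 22 of 12603 genes and none of the 5. Within the Ern2-/- label, against GF mice, it called 4 of 12318 genes in CONV and 27 of 12519 in COLONIZED mice, and none of the 5. The log2 differences of the 5 genes under edgeR moved by less than the spread between replicates from those of DESeq2 in each comparison. With sex, read from Y-linked genes, as a covariate, the CONV genotype differences were −4.92 for Retnlb, −3.74 for Ang4, −5.69 for Itln1, −5.76 for Mptx1 and −2.60 for Spink4. All CONV-Ern2-/- libraries were male by these genes, so these values set that group against CONV-WT replicate 1, the only male of CONV-WT. That library was the highest of its group for every gene of the set but Spink4. Between COLONIZED-WT and GF-WT the covariate gave 3.93 for Retnlb and 3.35 for Ang4, next to 4.66 and 4.03 without it. As no GF-WT library was male, the covariate values rest on COLONIZED-WT replicate 2 alone. In GF mice, where no WT library was male, the covariate fit likewise rests on GF-Ern2-/- replicate 3, the only library of that group that was not male. That library was the lowest of its group for Itln1 and Spink4. The fit gave −0.78 for Ang4 (−1.48 without the covariate), −0.91 for Itln1 (0.12 without) and −0.46 for Spink4 (0.24 without). The number of all genes called between CONV-Ern2-/- and CONV-WT was 126 without CONV-WT replicate 2 and 1686 without CONV-WT replicate 3.

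**Figure D2:**
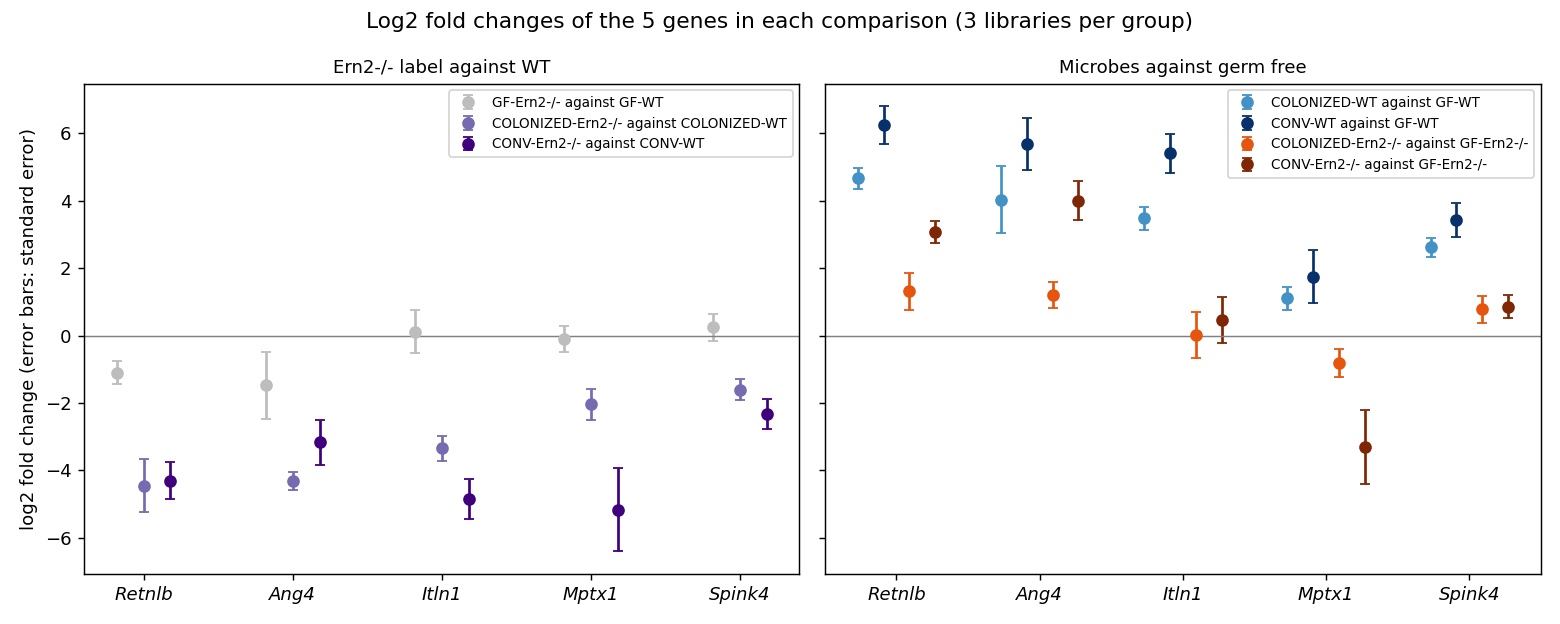
Log2 fold changes of the 5 genes, with standard errors as bars, for the Ern2-/- label against WT in each microbial state (left) and for microbes against germ free in each genotype (right), from 3 libraries per group. On the left, GF values lie between −1.48 and 0.24 and those with microbes at or below −1.60. On the right, Mptx1 is below 0 in both comparisons within the Ern2-/- label.

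As proteins of this kind are known from goblet cells, the levels of the 5 genes were set against 25 other goblet cell genes, among them Muc2, Fcgbp, Agr2 and Spdef. In bulk crypts, fewer goblet cells and less RNA per goblet cell cannot be told apart. The mean log2(normalized count + 1) of the 25 genes was 11.32 ± 0.69 in CONV-WT and 10.05 ± 0.16 in CONV-Ern2-/-, with no overlap, and 11.36 ± 0.08 and 10.83 ± 0.39 in the COLONIZED groups (SD, n = 3). Between CONV-Ern2-/- and CONV-WT, 15 of the 25 fell and 1 rose by DESeq2, with a median log2 difference of −1.47 against 0.02 over all genes tested, of which 2.87% were called. Clca3 (−3.83), Gfi1 (−2.97) and Muc2 (−2.61) fell the most and Guca2a (1.20) rose. In COLONIZED mice, where 1.20% of all genes were called, 3 of 25 fell, namely Clca3 (−2.02), Spdef (−0.92) and Foxa3 (−0.63). Between genotype labels edgeR called none of the 25 genes in either state. With microbes, 4 of the 25 rose and 1 fell by DESeq2 in CONV-WT, and 12 rose and 3 fell in COLONIZED-WT. Within the Ern2-/- label 5 fell in CONV mice and 5 rose in COLONIZED mice. The shares of all genes called were 11.0%, 17.8%, 4.10% and 7.65%, in that order.

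Relative to the goblet mean of the same library, Retnlb was at 2.87 ± 0.51 in CONV-WT and 0.03 ± 0.40 in CONV-Ern2-/- on the log2 scale. Itln1 was at −1.74 ± 0.61 and −5.04 ± 0.50, and Ang4 at 2.54 ± 0.29 and 0.37 ± 1.13. Spink4 was nearer, at 3.58 ± 0.23 and 2.67 ± 0.39, with 3.33 as the lowest CONV-WT value and 3.11 as the highest CONV-Ern2-/- value. Mptx1 was at 5.04 ± 1.43 and 0.88 ± 1.93, with 3.39 in the lowest CONV-WT library and 2.96 in the highest CONV-Ern2-/- library. In COLONIZED-WT and COLONIZED-Ern2-/- mice, Retnlb was at 1.42 ± 0.60 and −2.82 ± 1.34 and Ang4 at 0.90 ± 0.56 and −2.82 ± 0.52. In the same groups Itln1 was at −3.50 ± 0.57 and −6.33 ± 0.65. Mptx1 was there at 5.02 ± 0.17 and 3.31 ± 0.93, and Spink4 at 2.88 ± 0.24 and 1.69 ± 0.62. When the libraries were scaled to the 25 goblet genes in the fit, the CONV genotype differences were −2.87 for Retnlb, −1.87 for Ang4, −3.42 for Itln1, −3.70 for Mptx1 and −0.89 for Spink4. Because the goblet mean was lower in CONV-Ern2-/-, this scaling shifts each of these differences upward by construction, and all 5 were smaller in size. Spink4, with the smallest difference before scaling, was also the nearest to 0 after it. CONV-WT replicate 3, low in all 5 genes, was also low in the goblet mean (10.52 against 11.70 and 11.73). Relative to that mean, replicates 1 to 3 of CONV-WT were at 2.87, 2.35 and 2.40 for Ang4 and at 3.63, 3.79 and 3.33 for Spink4, so that replicate 3 lay closer to the others, while for Mptx1 it stayed apart (5.94, 5.78 and 3.39).

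**Figure D3:**
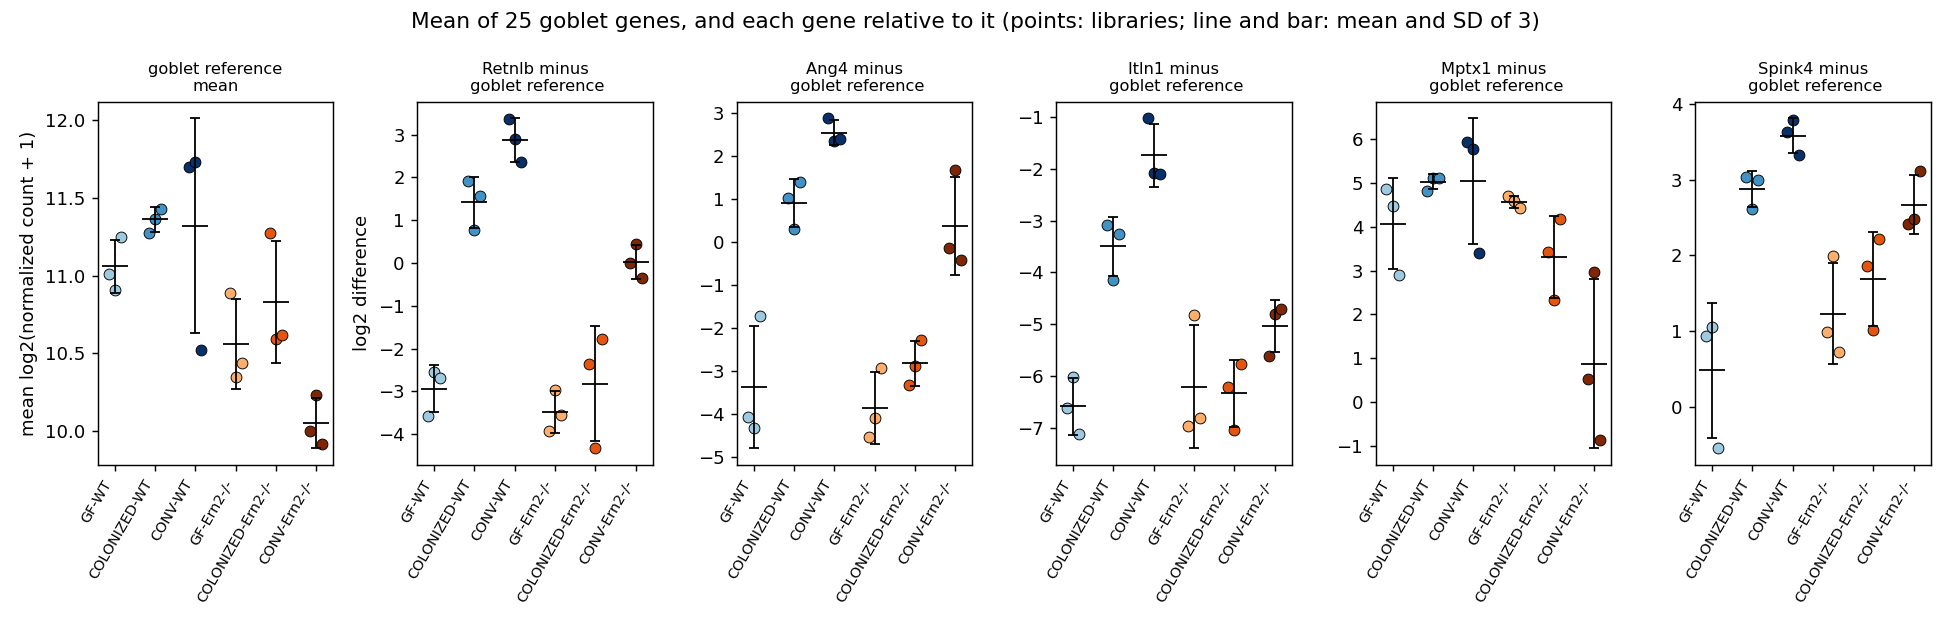
The left panel gives the mean log2(normalized count + 1) of 25 goblet genes in each library, and the other panels give each of the 5 genes minus that mean, with points for libraries and line and bar for mean and SD of 3. CONV-Ern2-/- has the lowest goblet mean (9.92 to 10.23), and the mean of each of the 5 genes relative to it is lower than in CONV-WT.

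Markers of other cells moved with the groups as well. The summed level of 10 surface enterocyte genes was 39529 to 309741 in CONV-WT and 336369 to 515693 in CONV-Ern2-/-, where 5 of the 10 rose by DESeq2 (2.87% of all genes were called). In the same comparison 9 of 10 stem and proliferation genes were lower (median −0.75), with Axin2 called lower and Olfm4 called higher. Between COLONIZED-Ern2-/- and COLONIZED-WT only Ascl2 of these 10 was called, lower (1.20% of all genes called). The 10 mesenchymal genes summed to 70.7 to 407 in CONV-WT and 74.1 to 381 in CONV-Ern2-/-. The 14 Paneth cell genes in the table summed to 11.0 to 169 over all libraries, and from 4 (GF-Ern2-/-) to 12 (CONV-Ern2-/-) of them were at 0 in every library of a group. With microbes, the surface enterocyte genes fell by DESeq2 in 4 of 10 cases in CONV-WT (median −1.79), 2 of 10 in COLONIZED-WT (median −1.36, with 1 that rose) and 5 of 10 in COLONIZED-Ern2-/- (median −0.96), and in none of 9 in CONV-Ern2-/-. Of 9 tested stem and proliferation genes, 3 rose in CONV-WT, 5 in COLONIZED-WT, 0 in CONV-Ern2-/- and 4 in COLONIZED-Ern2-/-, where 11.0%, 17.8%, 4.10% and 7.65% of all genes were called in either direction. Of 9 tuft cell genes, 4 rose in CONV-WT, 6 in COLONIZED-WT, 4 in CONV-Ern2-/- and 1 in COLONIZED-Ern2-/-. Of 10 enteroendocrine genes, Tph1 (2.88 and 3.25), Chgb (1.92 and 2.82) and Chga (1.48 and 2.33) rose in CONV-Ern2-/- and COLONIZED-Ern2-/-, Gcg rose in the latter (1.30) and Insl5 fell in the former (−3.37), whereas in WT only Scg2 was called, lower in CONV-WT. Mesenchymal genes rose in 2 of 8 tested cases in CONV-WT and 1 of 8 in CONV-Ern2-/-, from the low sums given above. For microbes, edgeR called Pcna, Mcm5, Mcm6 and Dclk1 in COLONIZED-WT and Car4 and Aqp8 in COLONIZED-Ern2-/- among these 5 lists and none in the CONV groups, and it called none of them between genotype labels. The part of these cells in the levels of the 5 genes was not tested.

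Because Ang4 and Mptx1 have close relatives, related genes were examined for reads that could belong to more than 1 gene. The Ang4 transcript matched that of Ang5 at 90.5% and that of Ang at 87.0% of aligned bases, and 5 of its 635 stretches of 75 bases, the read length, occurred in another gene (Ang5). Mptx1 and Mptx2 transcripts were identical at 92.9% of aligned bases, and 73 of 725 stretches were shared (10.1%). Retnlb, Itln1 and Spink4 shared none with the genes of that annotation. Itlnb, a relative of Itln1, was not among them and was not analysed here. Ang2, Ang3 and Ang5 had no count in the table and Ang6 had 1. Mptx2 had 36.8, 30.6 and 1.83 normalized counts in CONV-WT and 0 in all CONV-Ern2-/- libraries, 6.61 to 14.3 in COLONIZED-WT and 0.9 to 2.14 in COLONIZED-Ern2-/-, and 4.86 to 9.99 in GF-WT and 4.17 to 11.2 in GF-Ern2-/-. Like Mptx1, at far lower counts (Mptx1 stood at 204798 in CONV-WT replicate 1), it was low in CONV-WT replicate 3 and lower in COLONIZED-Ern2-/- and CONV-Ern2-/- than in GF-Ern2-/- libraries, and whether reads of 1 gene were counted for the other was not tested.

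Of the relatives, Ang, Rnase4 and Spink3 had a mean of 10 or more normalized counts. Ang, the ancestral angiogenin, had group means from 348 ± 58.3 to 613 ± 35.0, and Rnase4, which shares its locus, from 2246 ± 308 to 3607 ± 536. Between COLONIZED-Ern2-/- and COLONIZED-WT both fell by DESeq2, Ang by 0.82 (adjusted p 5.79e-05) and Rnase4 by 0.69 (adjusted p 0.00141), whereas Ang4 differed by −4.31, and edgeR gave adjusted p of 0.0767 and 0.144. Spink3, another Kazal-type inhibitor, went opposite to Spink4. It had 3273 ± 474 normalized counts in GF-WT, 485 ± 264 in COLONIZED-WT and 411 ± 80.4 in CONV-WT, and fell with microbes in WT by 3.00 (CONV) and 2.75 (COLONIZED), with DESeq2 adjusted p of 1.4e-34 and 1.17e-15 and edgeR adjusted p of 0.00624 and 0.00644. It fell within the Ern2-/- label too, by 3.46 and 2.34 (DESeq2 adjusted p 6.09e-21 and 4.02e-06), with edgeR adjusted p of 0.0139 and 0.0338, which did not pass at 0.01. Spink3 did not pass the DESeq2 test between genotype labels in any state.

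**Figure D4:**
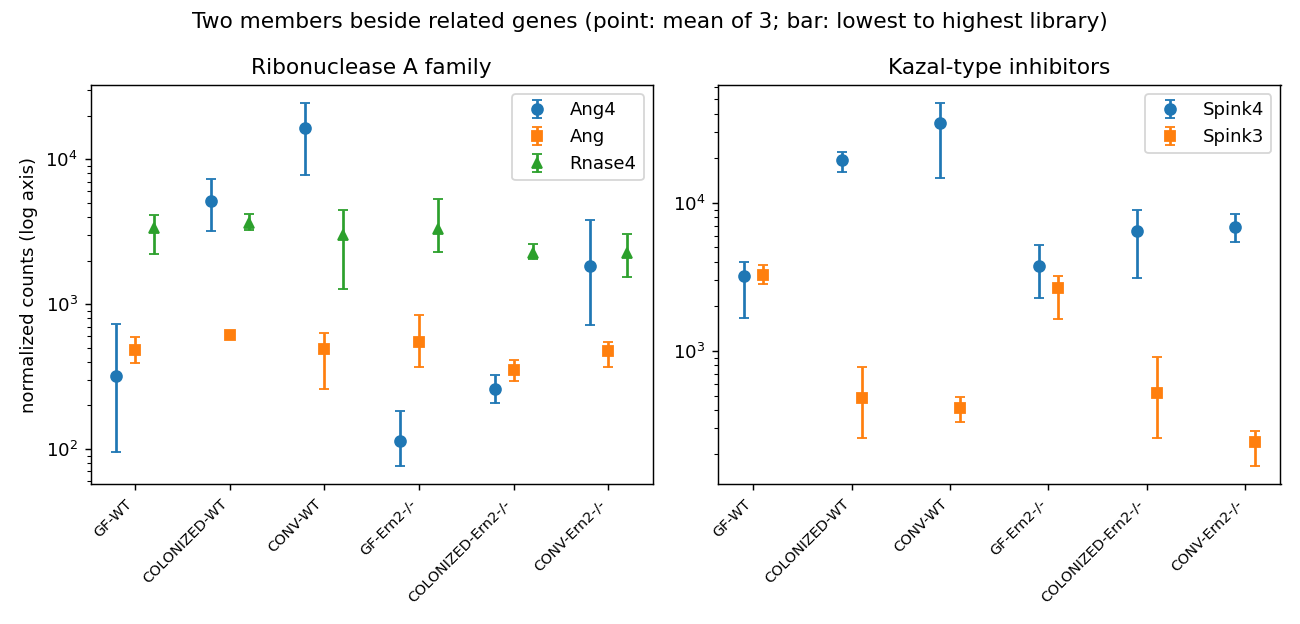
Group means of normalized counts on a log axis, with bars from the lowest to the highest of 3 libraries, for Ang4 beside Ang and Rnase4 (left) and Spink4 beside Spink3 (right). Ang and Rnase4 keep group means within 348 to 613 and 2246 to 3607, and Spink3 is lower with microbes in both genotypes.

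The likeness of patterns was described by Pearson's r of log2(normalized count + 1) over the 18 libraries, which share their depth and cell makeup between genes and fall into few groups. Retnlb, Ang4, Itln1 and Spink4 were alike, with r from 0.82 to 0.96, whereas Mptx1 had r of 0.27 to 0.53 with them. Among 10852 genes with a mean of 50 or more normalized counts, the nearest to Itln1 besides Retnlb and Spink4 were Pnliprp2 (0.96), Clps (0.94) and Prmt1 (0.92). Pnliprp2 and Clps encode a lipase and colipase known from the pancreas. Of 10 pancreatic acinar genes only Cela1 exceeded 10.5 normalized counts in any library, and it was highest in germ-free mice (3412 to 6991). Pnliprp2 had 677 ± 543 normalized counts in CONV-WT and 21.7 ± 12.1 in CONV-Ern2-/-. The source of these transcripts was not tested. The nearest to Spink4 were Reg4 (0.96), Ftsj1 (0.95), Gpx2 (0.94), Itln1 and Prpf19 (0.94). Those to Retnlb, after 3 of the other members of this set, were Pnliprp2 (0.92) and Wbscr16 (0.91). Those to Ang4, after Retnlb, included Pla2g4c (0.94), Fn1 (0.91) and Gadd45g (0.91), and Pla2g4c went from 21.0 ± 4.88 in GF-WT to 4834 ± 3107 in CONV-WT and 510 ± 546 in CONV-Ern2-/-. Mptx1 had a separate set of neighbours, Rprm (0.95), C1qtnf6 (0.95), Ramp1 (0.95), Hpn (0.94) and Pla2g2f (0.94). Each of these 5 overlapped between GF-WT and CONV-WT and had its lowest group mean in CONV-Ern2-/-, where Pla2g2f had 112 ± 111 against 1016 ± 500 in CONV-WT.

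Other defence genes were taken from a list of 51, of which 48 were in the table. Most encode secreted proteins, and some encode enzymes or sensors that stay in the cell or its membrane, such as Nos2, Duox2, Duoxa2 and Nlrp6. Between CONV-Ern2-/- and CONV-WT, 28 had an adjusted p and 3 passed at 0.01 in DESeq2 (2.87% of all genes did), with a list median of 0.43 against 0.02 over all genes. Saa1, an acute phase protein, rose by 2.17 (adjusted p 7.33e-05) and Lypd8, which keeps flagellated bacteria from the surface, by 1.59 (adjusted p 2.91e-05). Pla2g2a, a phospholipase gene, fell by 3.49 (DESeq2 adjusted p 0.000832). In COLONIZED mice 1 of 32 passed (1.20% of all genes), the lectin Reg3b, which rose by 3.07 (DESeq2 adjusted p 4.14e-05), from 2261 ± 329 in COLONIZED-WT to 19076 ± 13096 normalized counts in COLONIZED-Ern2-/-. edgeR called none of these 4 (adjusted p from 0.0767 to 0.136). In GF mice 0 of 35 passed in DESeq2 (0.0350% of all genes called) and 0 in edgeR.

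With microbes in WT, 7 of 31 listed defence genes rose and 5 fell between GF-WT and CONV-WT (median 0.53 against 0.00 over all genes, of which 11.0% were called), and 14 of 32 rose and 5 fell between GF-WT and COLONIZED-WT (median 0.86 against −0.01, with 17.8% of all genes called). In CONV-WT the largest rises were those of Nos2 (3.48), Pla2g2a (3.14) and Reg4 (3.03), and in COLONIZED-WT those of Reg3g (3.42), Reg3b (3.29) and Wfdc18 (2.91). Saa1 (−4.74 and −4.82), Zg16 (−3.60 and −2.31) and Slpi (−3.49 and −2.73) fell most in both. Zg16, a lectin that binds Gram-positive bacteria, and Saa1 thus went the other way from Itln1 and Retnlb. Within the Ern2-/- label, 2 of 29 rose and 5 fell in CONV mice (4.10% of all genes called) and 3 of 28 rose and 3 fell in COLONIZED mice (7.65%). Those with the largest changes were Nos2 (3.20), Duoxa2 (2.09), Slpi (−5.25), Zg16 (−2.91) and Tff3 (−1.76) in CONV-Ern2-/-, and Reg3b (4.33), Duoxa2 (1.68), Duox2 (1.59), Saa1 (−4.44), Tff3 (−1.49) and Lypd8 (−1.16) in COLONIZED-Ern2-/-. Of these list genes edgeR called 0 in CONV-WT, 4 in COLONIZED-WT, 0 in CONV-Ern2-/- and 1 in COLONIZED-Ern2-/-, each against germ-free mice of the same genotype.

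**Figure D5:**
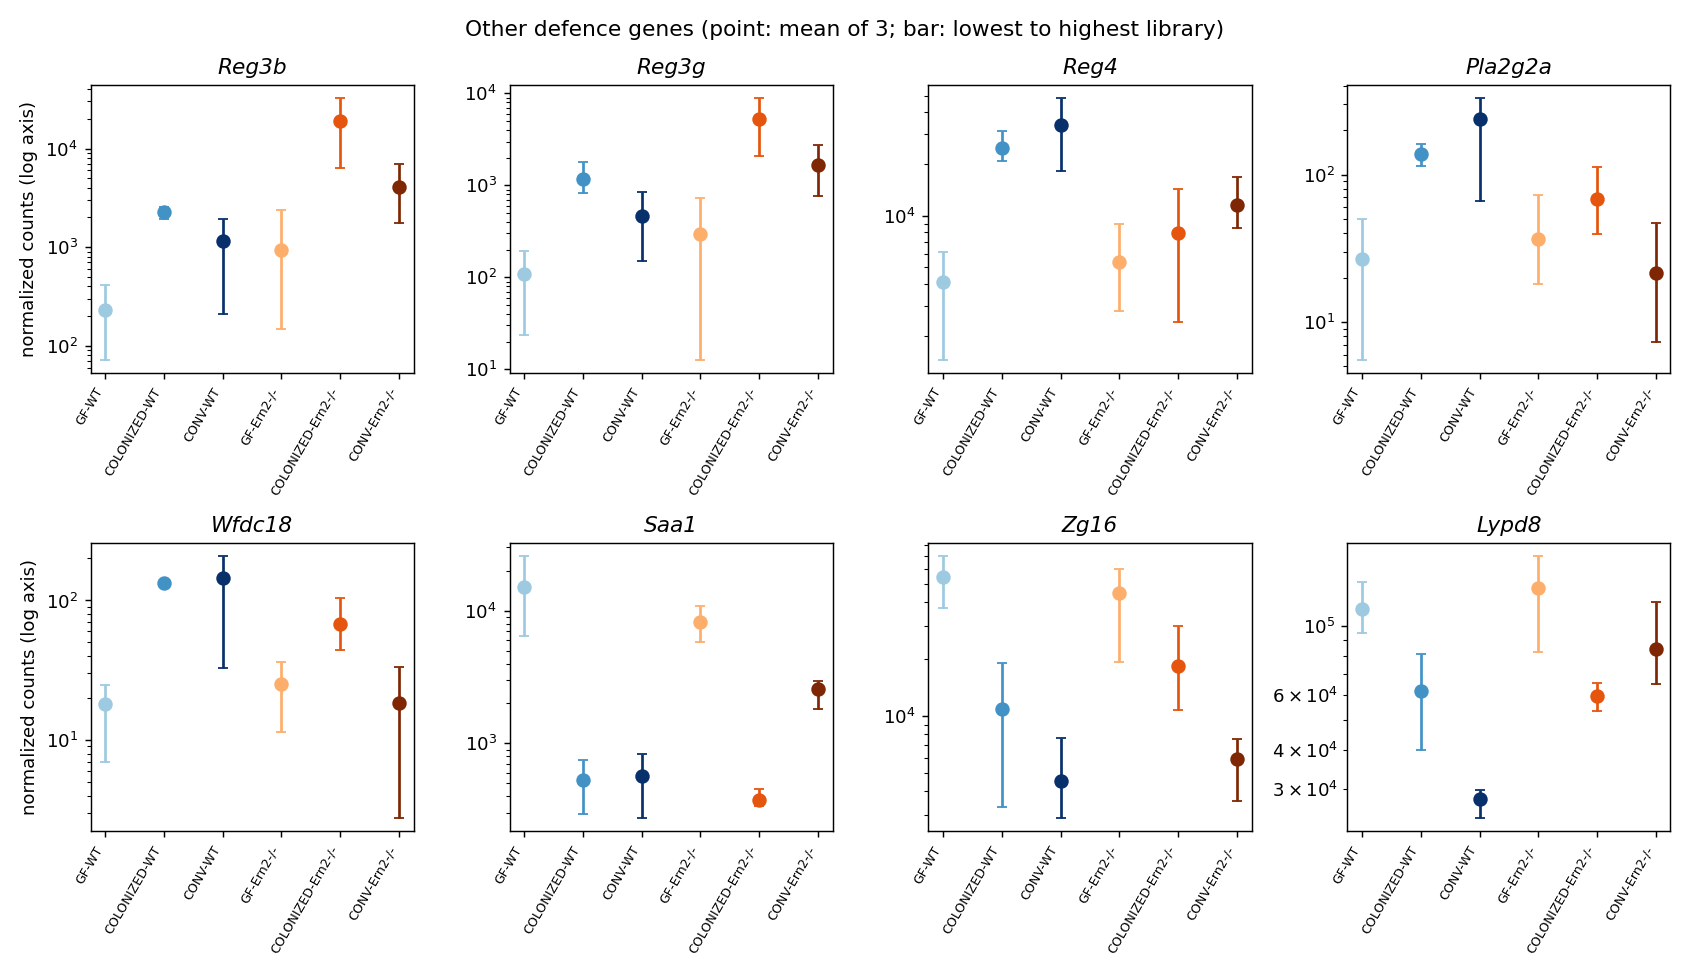
Group means of normalized counts on a log axis for 8 other defence genes, with bars from the lowest to the highest of 3 libraries. Reg4 is highest in COLONIZED-WT and CONV-WT, Reg3b reaches a mean of 19076 in COLONIZED-Ern2-/-, and Saa1, Zg16 and Lypd8 are highest in germ-free groups.

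Retnlb is known as a target of type 2 cytokines, so 22 genes of that response and of tuft cells, which start it, were examined. None of 14 with an adjusted p passed between CONV-Ern2-/- and CONV-WT in DESeq2 (2.87% of all genes called) or in edgeR (0 genes called). In COLONIZED mice Il13ra1 rose by 0.76 and Gsdmc2 and Gsdmc4 fell by 0.98 and 0.78, 3 of 15 (1.20% of all genes called). Their DESeq2 adjusted p were 0.000763, 0.00114 and 0.00478, and their edgeR adjusted p 0.12, 0.164 and 0.164. With microbes in WT, 5 of 16 rose in CONV and 6 of 17 in COLONIZED mice (11.0% and 17.8% of all genes called) and none fell, among them Gsdmc2 (2.04 and 2.09). Within the Ern2-/- label, 3 of 16 rose in CONV mice (4.10% of all genes called), namely Gsdmc2 (1.70), Dclk1 (1.51) and Gsdmc4 (0.95), with edgeR adjusted p of 0.0183, 0.0462 and 0.111. In COLONIZED-Ern2-/- mice Dclk1, a tuft cell kinase, rose by 1.53 and Cish fell by 0.83, 2 of 14 (7.65% of all genes called). Their edgeR adjusted p were 0.0467 and 0.0421. By DESeq2 Dclk1 also rose in WT, by 1.62 in CONV and 1.45 in COLONIZED mice (adjusted p 0.00255 and 1.77e-07). With edgeR it passed at 0.01 only in COLONIZED-WT (adjusted p 0.00882, against 0.0561 in CONV-WT).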

How the data were processed

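RNA-Seq was done on colon crypts, 18 libraries in all. Per the labels and the study's methods, the authors prepared stranded mRNA libraries, sequenced single-end reads of 75 cycles, processed them with VIPER and aligned them with STAR to mm10. The deposited table holds raw counts for each gene symbol, neither normalized nor pooled. The STAR version, annotation and strand setting are not given in the sources used here, so reads of overlapping or near-identical genes may be misplaced. The labels do not say that replicates were separate mice, although the study describes single mice for some RNA-Seq values, so p-values measure the spread between these samples.

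Each of 7 comparisons was fitted on its own 6 libraries, and 2 interactions on 12, by DESeq2 1.42.0 (Wald, R 4.3.3) without shrinkage. A Benjamini-Hochberg adjusted p below 0.01 made a call, the threshold of the study. Alternatives were edgeR 4.0.16 (quasi-likelihood), TMM factors, a filter at a mean of 10, a replicate block, sex as covariate, scaling to 25 goblet genes (for the 5 genes alone) and leaving out each library. The scripts were tested on simulated data. Coordinates and lengths are from GENCODE vM21 (GRCm38, that is mm10) and promoters from RefSeq on GRCm38.p6. The 5 genes and all lists were chosen with earlier results of these data known. Named genes were the 5, Ern2, relatives with a mean of 10 or more normalized counts, in each comparison up to 3 called genes of each list with the largest rise and fall, and per gene the 5 with the highest r among genes with a mean of 50 or more. Totals of 5865619 to 23154481 counts per library set the counting precision, and errors rest on the spread of 3 libraries. Some genes that this rule names are not reported here.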

Additional observations from a re-analysis of the deposited data

Results flagged for a closer look

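On the log2 scale, the genotype difference in the response to microbes among the 5 genes was past the study's threshold (DESeq2 interaction) for Retnlb (−3.20) and Itln1 (−4.96) in CONV against GF mice and for Itln1 (−3.45) in COLONIZED against GF mice. These genes were chosen on such differences, so the values describe these libraries and are no test of them, and edgeR called no interaction in either comparison, with 957 and 947 genes at an unadjusted p under 0.05. Leaving out 1 library at a time gave −3.62 to −2.74 for Retnlb, −5.37 to −4.10 for Itln1 in CONV and −3.77 to −2.57 for Itln1 in COLONIZED mice, where both values of Itln1 nearest to 0 were those without GF-Ern2-/- replicate 2. In those 12 fits each, Retnlb was past the threshold in 4, Itln1 in 12 in CONV mice and Itln1 in 3 in COLONIZED mice. The COLONIZED value of Itln1 was also not past it with the sex covariate, where none of the 5 genes was, or with the replicate block, where Ang4 was.

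Mptx1 went in opposite directions on colonization. All COLONIZED-WT libraries (69940 to 95012 normalized counts) were above all GF-WT libraries (18130 to 59354), and all COLONIZED-Ern2-/- libraries (7760 to 28570) were below all GF-Ern2-/- libraries (30095 to 49582), a difference of −1.92 (SE 0.62) between the 2 log2 changes. In the interaction fit for COLONIZED against GF mice Mptx1 was not past the threshold with DESeq2 or edgeR. The log2 change within the Ern2-/- label, −0.82 (SE 0.42), was not past it either. Without COLONIZED-Ern2-/- replicate 2 that change was −0.43.

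Among the listed genes beside the 5, Saa1 (3.05, DESeq2 adjusted p 0.00719), Gfi1 (−2.61, adjusted p 2.95e-06) and Tpsg1 (−1.89, adjusted p 0.00545) differed between genotype labels in the response of CONV against GF mice. With edgeR their adjusted p were 0.431, 0.139 and 0.431. Relative to germ-free mice of the same genotype, the Saa1 decrease was −4.74 in CONV-WT and −1.68 in CONV-Ern2-/- mice (DESeq2 adjusted p 3.17e-14 and 7.8e-06).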

How the results depend on the processing

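The log2 differences of the 5 genes moved by less than the replicate SD under edgeR, TMM factors, the filter and the replicate block. The same held on leaving out each library, but that SD takes in the library left out and so cannot show stability. Without GF-WT replicate 3, the GF genotype difference of Ang4 went from −1.48 to 0.07. Without CONV-Ern2-/- replicate 2, the CONV genotype difference of Mptx1 went from −5.16 to −7.06. Goblet gene scaling made the difference between CONV-Ern2-/- and CONV-WT smaller in size for all 5 genes. The shift was larger than the replicate SD for Retnlb (−2.87), Itln1 (−3.42) and Spink4 (−0.89), and smaller than it for Ang4 and Mptx1. The sex covariate moved Itln1 by more than that SD between COLONIZED-WT and GF-WT (2.76), in a fit that rests on COLONIZED-WT replicate 2 alone. Counts of calls depended on the tool. edgeR called 0 genes for the genotype in CONV and 0 in GF mice (1865 and 194 at an unadjusted p under 0.05) and 1 in COLONIZED mice, 22 and 630 for CONV-WT and COLONIZED-WT against GF-WT, 4 and 27 within the Ern2-/- label, and 0 and 0 for the interactions. Its calls among the 48 defence genes were 0 and 0 for the genotype in CONV and COLONIZED mice, 0 and 4 in WT, 0 and 1 within the Ern2-/- label and 0 for the CONV interaction. With the sex covariate, 239 genes were called for the genotype in CONV mice, 937 and 229 for CONV-WT and COLONIZED-WT against GF-WT (3 defence genes in the latter) and 0 for the COLONIZED interaction. TMM factors and the filter kept all counts within 1.5 times. The cause was not tested.

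The replicate numbers did not meet the rule for pairs, a correlation of deviations over 0.1 in every pair. It was over 0.1 in 21 of 45 same-numbered pairs (−0.44 to 0.63, median 0.09), 11 of them among the 15 pairs of replicate 1, and a library matched its own number best, of 3, in 43 of 90 cases. The replicate block gave 6 and 2 defence genes for the genotype in CONV and COLONIZED mice, and 41 genes, 2 of them defence genes, for the CONV interaction, and kept other counts within 1.5 times.

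Leaving out 1 library gave 126 to 1686 genes for the genotype in CONV mice (extremes without CONV-WT replicates 2 and 3), 1 to 12 in GF and 80 to 656 in COLONIZED mice (lowest without replicate 1 of the WT group, highest without replicate 1 of the Ern2-/- group). For microbes it gave 599 to 2888 in CONV-WT (the same libraries), 1298 (without COLONIZED-WT replicate 1) to 2684 in COLONIZED-WT, 251 to 959 in CONV-Ern2-/- (extremes without GF-Ern2-/- replicates 1 and 2) and 446 (without COLONIZED-Ern2-/- replicate 2) to 1340 in COLONIZED-Ern2-/-. The interactions gave 3 to 287 (CONV, the latter without CONV-WT replicate 3) and 0 to 5 (COLONIZED). Defence gene calls ranged over 2 to 10 and 1 to 5 for the genotype in CONV and COLONIZED mice, 6 to 16 and 11 to 19 for microbes in WT, 4 to 11 and 1 to 7 within the Ern2-/- label and 0 to 3 for the CONV interaction.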
